A study of Mus musculus with 18 samples.

Results

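The genes that gained or lost H3K27me3 peaks in mdxTLR4-/- relative to WT macrophages were identified from the peak lists deposited for these genotypes. H3K27me3 is trimethylation of lysine 27 of histone H3. Of the 18 samples of the series, 4 were compared, which are the 2 H3K27me3 ChIP libraries of each genotype, and the measurements were taken over all 20807 protein-coding genes of chromosomes 1 to 19. The cells were bone marrow-derived macrophages (BMDM), grown from the marrow of male mice and left untreated. WT samples carried the strain label C57BL6 and age labels of 12 and 13 weeks. The other samples were labelled mTLR4, read here as mdxTLR4-/-, with the strain label Bl6/Bl10 and age labels of 16 and 17 weeks; these mice carried the mdx mutation of the dystrophin gene and also lacked TLR4. The dystrophin mutation, the loss of TLR4, the labelled strain and the labelled age all differed between the groups and cannot be told apart. Input chromatin was labelled 6 and 7 weeks for WT and 10 and 11 weeks for mdxTLR4-/-. Over the whole series the age labels follow the order of the libraries in steps of 1 week, so it is uncertain that they are the ages of the mice. The methods of the study place the WT, mdx and TLR4-/- parent mice on the same C57BL/6J background, which differs from the strain labels. The authors merged the libraries of each genotype before calling peaks, so there was 1 peak list per genotype, no spread between mice and no test of a difference. Intervals given below cover counting error or the spread over genes or regions only.

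H3K27me3 is laid down by Polycomb repressive complex 2, whose catalytic subunit is EZH2 or EZH1, and is removed by the demethylases KDM6A and KDM6B. The mark lies in broad domains over genes that a cell lineage keeps silent, such as the Hox genes and the master regulators of other lineages, and it is sparse over genes that are transcribed. TLR4 is the receptor for lipopolysaccharide and for molecules released by damaged tissue, and it signals through MyD88 and TRIF to NF-kappaB and interferon regulatory factors. The comparison asks what the H3K27me3 landscape of dystrophic macrophages without this receptor looks like beside that of healthy macrophages.

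A peak is a stretch of enriched windows on a 200 bp grid with its count of ChIP reads, unscaled for depth and with no input subtracted. On chromosomes 1 to 19 the WT list held 28024 peaks over 252 Mb with 8315029 reads, and the mdxTLR4-/- list held 36294 peaks over 223 Mb with 7342998 reads. The mdxTLR4-/- list thus held more peaks but fewer covered bases, with a median peak length of 3400 bp against 5400 bp. Library depth is unknown here, so every read comparison was made on the reads as deposited (unscaled) and with the mdxTLR4-/- reads multiplied by 1.13, the ratio of the reads in peaks (scaled). A few very dense peaks of at least 100 reads per kb, 16 in WT and 39 in mdxTLR4-/- BMDM, held 0.683% and 0.906% of the reads, and the scaling factor was also 1.13 without them.

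Tlr4 itself, the gene that is disrupted, could not serve as a check of the genotype. Neither list held a peak in its window, which ran from 5 kb upstream of the gene to 1 kb past its end, and the nearest peak upstream lay 422 kb away in both. Downstream, the nearest peak lay 4320 kb away in WT and 467 kb away in mdxTLR4-/- BMDM. Within 10 Mb of Tlr4, 4 of 108 genes (3.70%) were lower in coverage by 20 percentage points or more and 1 was higher. Over all genes 3.47% were lower and 0.966% higher, so the neighbourhood stood near this background. The macrophage label was checked against marker genes. Of 20 macrophage markers, among them Csf1r, Spi1, Adgre1 and Cd68, 18 had no peak in either list. T and NK cell markers were covered at their transcription start in 10 of 14 genes in WT and 9 of 14 in mdxTLR4-/- BMDM, and muscle markers in 11 of 19 in both. B cell markers were covered at the start in 5 of 10 genes in both lists, erythroid and megakaryocyte markers in 5 of 11 in both, and neutrophil markers in 4 of 14 in WT and 3 of 14 in mdxTLR4-/- BMDM.

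The share of a gene window under peaks, called coverage here, was lower in mdxTLR4-/- BMDM by at least 20 percentage points in 722 genes (3.47% of 20807) and higher by at least 20 points in 201 genes (0.966%). Averaged over all genes, coverage was 18.4% in WT and 16.8% in mdxTLR4-/- BMDM, a difference of -1.66 points with a 95% interval over genes of -1.78 to -1.55. Some peak was present in the window of 8334 genes in WT and 8428 genes in mdxTLR4-/- BMDM. The count of genes with a called peak was thus similar, while the extent under called peaks was smaller. Measured as signal over input around all genes, the study found H3K27me3 higher in mdxTLR4-/- than in WT BMDM. Coverage by called peaks, with depth unknown and no input subtracted, is a different measure. Of the 9066 genes with a peak in either list, coverage was lower to any degree in 5395, higher in 2664 and identical in 1007. The lower calls made up 13.6% of the 1384 genes covered for 25% to 50% in WT, 18.2% of the 1179 genes covered for 50% to 75% and 11.0% of the 2454 genes covered for more than 75%. The last class held the most of them, 269 of 722, and a gene covered for less than 20% in WT could not be called lower. The called genes had short windows, with a median of 14.4 kb for the lower and 11.3 kb for the higher ones. It was 27.4 kb over genes with a peak in either list and 23.6 kb over all genes.

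Reads were compared in the 7973 genes with at least 50 reads in the higher list, giving each window the part of a peak's reads that matched the part of its length inside the window. Unscaled, 1532 genes (19.2%) had reads at least 1.5-fold lower in mdxTLR4-/- BMDM and 463 (5.81%) at least 1.5-fold higher. Scaled, the counts were 1159 (14.5%) lower and 594 (7.45%) higher, so that the lower genes made up 76.8% of the calls unscaled and 66.1% scaled. These counts include genes with no peak in one list, for which no ratio is given. The median ratio of mdxTLR4-/- to WT reads in the 7406 genes with a peak in both lists was 0.892 unscaled (95% interval 0.888 to 0.897) and 1.01 scaled, so its direction depended on the scaling. Lower coverage together with lower reads under both scalings was seen in 435 genes (2.09%), and higher coverage with higher reads under both in 131 genes (0.63%). Of these, 145 had no peak left in mdxTLR4-/- BMDM and 77 had no peak in WT BMDM. Many of the calls rested on the thinner peaks of each list. Only peaks of at least 1.5 times the 1st percentile of read density in their list were then used. The 1st percentile was 15.5 reads per kb in WT and 14.1 in mdxTLR4-/- BMDM, so the cutoff was higher for WT. It left 16390 of 28024 WT peaks and 23871 of 36294 mdxTLR4-/- peaks. With these denser peaks only, the counts were 292 lower and 194 higher. The lower genes made up 60.1% of the calls instead of 76.9%. Of the 435 lower genes 145 were still among them, and of the 131 higher genes 69. The genes named by rule in the following were affected likewise. Of the 58 with lower coverage 23 were still called with the denser peaks only, 18 had no peak left in either list, 8 turned in direction and 2 of these 8 were called higher. Of the 30 with higher coverage 20 were still called, 8 had no peak left and 2 turned in direction. Peaks of like density could be dropped from WT and kept in mdxTLR4-/- BMDM, as over Vegfa (21.1 and 21.8 reads per kb). With the same number of peaks per list, the densest first, the WT list stayed whole. All 8 lower genes that had turned were then called lower, while the 2 higher ones, Nat8f6 and Krt15, were not called. Of the 15 largest losses named 15 were then still called, and of the 15 largest gains 14.

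**Figure D1:**
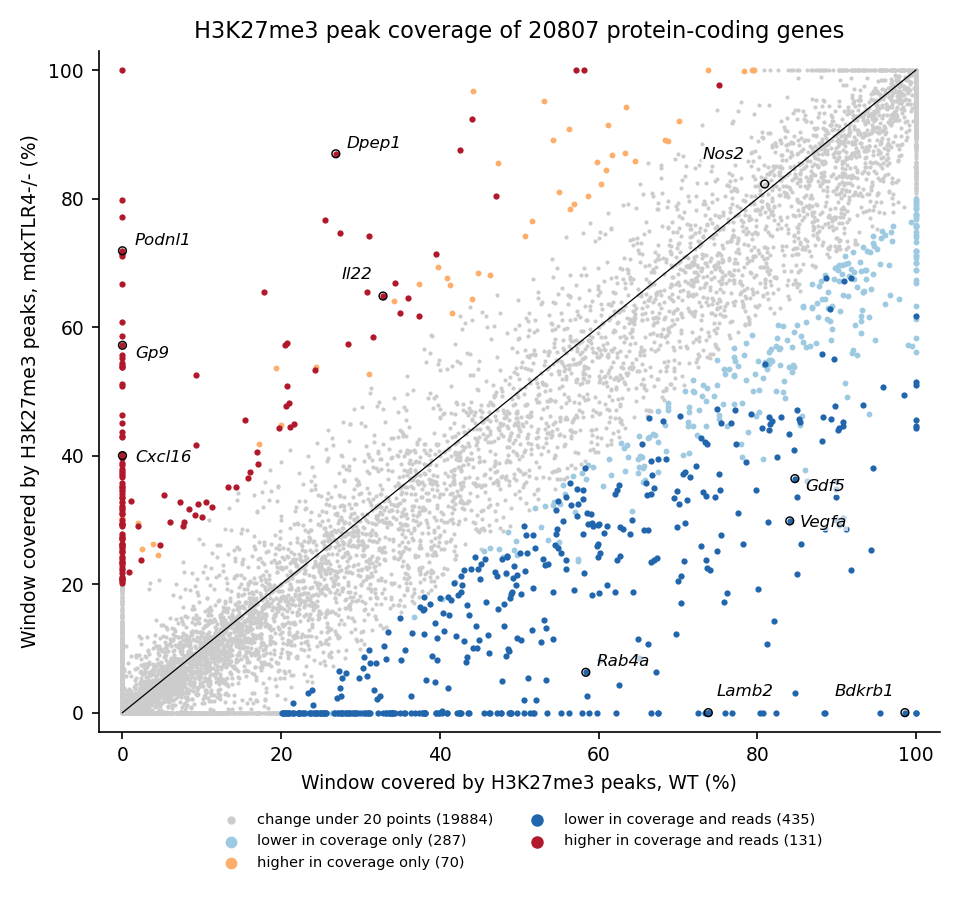
Share of each gene window under H3K27me3 peaks in WT (horizontal axis, %) and mdxTLR4-/- BMDM (vertical axis, %), 1 point per protein-coding gene, with the diagonal marking equal coverage. The 435 genes lower in coverage and reads lie below the diagonal and outnumber the 131 genes that are higher in both, and the genes on the horizontal axis, such as Lamb2 and Bdkrb1, have no peak in mdxTLR4-/- BMDM.

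Most of the bases that left the H3K27me3 list came from domains that both genotypes shared. Of the WT-covered bases, 25% (62.9 Mb) were not covered in mdxTLR4-/- BMDM. Of these 62.9 Mb, 31.1 Mb lay at the outer edges of WT peaks that still overlapped a mdxTLR4-/- peak, 12.3 Mb in gaps inside them and 19.6 Mb in 4832 WT peaks with no counterpart. In the other direction, 34.4 Mb (15.4% of the mdxTLR4-/- bases) were not covered in WT, of which 18.1 Mb lay in 7487 peaks without a counterpart, 12.4 Mb at edges and 3.89 Mb in gaps. Whole peaks thus made up similar totals in both directions, while edges and gaps were larger on the WT side: shared domains were shorter and more broken in the mdxTLR4-/- list. A single WT peak faced several mdxTLR4-/- peaks in 4113 merged regions, and the reverse held in 975.

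**Figure D2:**
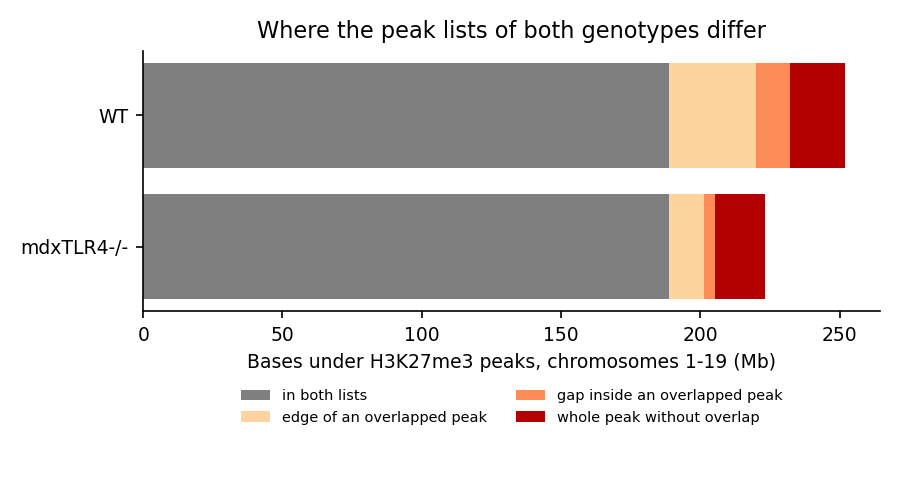
Bases under H3K27me3 peaks on chromosomes 1 to 19 (Mb) in each list, divided into bases covered in both lists, edges and inner gaps of peaks that overlap a peak of the other list, and whole peaks with no overlap. Edges and gaps are 31.1 and 12.3 Mb of the WT bar and 12.4 and 3.89 Mb of the mdxTLR4-/- bar.

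Where both genotypes had a peak, read density differed little. Over 19675 shared regions the median ratio of mdxTLR4-/- to WT reads per kb was 0.958 unscaled (95% interval 0.956 to 0.960) and 1.08 scaled, and the direction again depended on the scaling. Ranked by density and cut into 10 groups, the thinnest regions had a median unscaled ratio of 0.920 and the densest 0.987. Covered length followed the same order: mdxTLR4-/- peaks covered 0.716 of the WT length in the thinnest group and 0.961 in the densest. Regions found in 1 list alone were thin, with a median of 20.0 reads per kb in both lists, against 25.5 for WT and 24.5 for mdxTLR4-/- peaks in shared regions. Dense ones were more frequent in the mdxTLR4-/- list: 821 of its 7487 regions (11.0%) held at least 30 reads per kb, against 169 of 4832 (3.50%) in WT. The regions found in mdxTLR4-/- BMDM alone were also shorter, with a median of 2200 bp against 3800 bp for WT alone. The part of length in the density share was not tested. The 1st percentile of density over all peaks was 15.5 reads per kb in WT and 14.1 in mdxTLR4-/- BMDM, which is the level near which peaks were still called. Base composition moved with the covered length: from the fifth of shared regions poorest in G and C (median 42.9%) to the richest (51.3%), the median ratio of covered length ran from 0.800 to 0.929 and that of read density from 0.947 to 0.977. Its part in the difference was not tested.

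**Figure D3:**
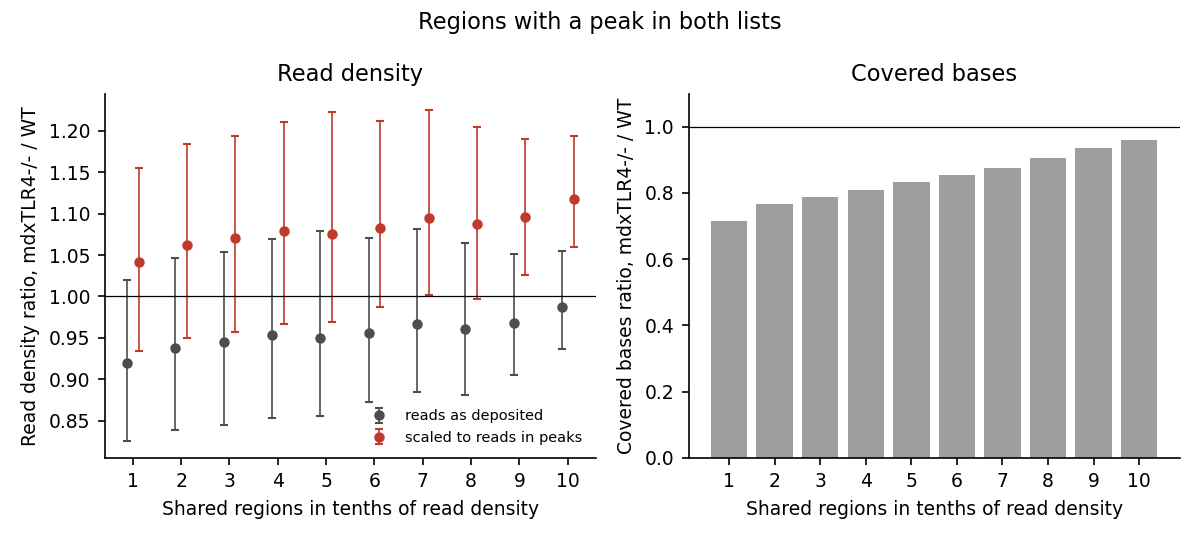
Shared regions in 10 groups of rising read density. Left, the median ratio of mdxTLR4-/- to WT read density with quartiles as bars, unscaled (grey) and scaled (red), and right, the ratio of covered bases. The unscaled medians run from 0.920 to 0.987 and stay below 1, the scaled medians stay above 1, and the covered bases run from 0.716 to 0.961.

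Among the genes with the largest loss of coverage, Lamb2, which encodes the laminin beta 2 chain of basement membranes, was covered for 73.8% with 315 reads in WT BMDM and had no peak in mdxTLR4-/- BMDM. Its WT peak, chr9:108474801-108487200 in mm10, was 12.4 kb long, held 25.4 reads per kb and covered the transcription start. Bdkrb1, the bradykinin receptor B1, went from 98.6% coverage and 184 reads to no peak. Rnase13, of the ribonuclease A family, was covered for 100% with 142 reads in WT only. These losses were complete in the peak lists.

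Gja10, a connexin of gap junctions, was covered for 84.7% with 225 reads in WT and 3.05% with 8 reads in mdxTLR4-/- BMDM, a ratio of 0.0349 (exact 95% interval 0.0152 to 0.0713). Glycam1, a mucin-like ligand of L-selectin, was covered for 91.8% and 22.1%, with 198 and 39 reads. The epithelial genes Cldn19, a tight junction claudin, and Krt12, the cornea keratin, had 242 and 206 WT reads against none and 38. The remaining genes among the 15 with the largest losses were Nutf2-ps1, Fam166a, Sytl1, Cyp2d12, Nat8, Krtap5-3, Olfr314 and Pabpn1l, with WT coverage of 72.5% to 94.3%. In mdxTLR4-/- BMDM all of them but Pabpn1l (25.2%) were without a peak. Of the 15 genes, 6 were still lower by 20 points when only the denser peaks were used, among them Lamb2, Cldn19 and Glycam1, and Bdkrb1 and Rnase13 then had no peak in either list. Cyp2d12, Nat8, Krtap5-3 and Olfr314 belong to families of close copies, between which reads may be misplaced.

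Gains of coverage were found in fewer genes. Podnl1, a leucine-rich repeat protein of the matrix, had no peak in WT BMDM and was covered for 71.9% with 245 reads in mdxTLR4-/- BMDM. Gp9, the platelet glycoprotein IX, had no WT peak and a mdxTLR4-/- peak of 4.4 kb with 192 reads, 43.6 per kb, over its start (chr6:87775001-87779400). Dpep1, a membrane dipeptidase, was covered for 26.9% with 232 reads in WT and 87.0% with 629 reads in mdxTLR4-/- BMDM, a ratio of 2.71 (2.33 to 3.17) unscaled and 3.07 scaled. In WT the peak lay at the 3′ end of Dpep1, and in mdxTLR4-/- BMDM peaks also covered its start.

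Pdk2, a kinase that inhibits pyruvate dehydrogenase, went from 44.1% to 92.4% and from 339 to 631 reads. Ntn5, a netrin-like secreted protein, Tekt2, a tektin of sperm flagella, Grifin, a galectin-related lens protein, and Pmp2, a fatty acid-binding protein of myelin, had no WT peak and were covered for 50.8% to 71.4% in mdxTLR4-/- BMDM. The others of the 15 with the largest gains were Olfr1371, Ctf2, Gal3st2, Cyp2t4, Smok3b, Nat8f6 and Ccdc188. Of these 15 genes, 12 were still higher by 20 points with the denser peaks only, and Pmp2, Ctf2 and Nat8f6 were not. Smok3b and Nat8f6 have close copies beside them.

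Among the inflammatory markers of the study, only the Tnf window differed by 20 points. Tnf, the tumour necrosis factor gene, was covered for 27.8% with 60 reads in WT and had no peak in mdxTLR4-/- BMDM. The WT peak, chr17:35203201-35205600, lay upstream of Tnf over the neighbouring gene Lta, which encodes lymphotoxin alpha, and did not reach the start of Tnf. Nos2, the inducible nitric oxide synthase, was covered for 80.9% with 1717 reads in WT and 82.3% with 1586 reads in mdxTLR4-/- BMDM, a ratio of 0.924 (0.862 to 0.990) unscaled and 1.05 scaled. Il12a, a subunit of interleukin 12, was covered for 28.8% and 25.9%, with 191 and 145 reads. Il6 and the anti-inflammatory markers Tgfb1, Mrc1, Chil3 and Arg1 had no peak in either list.

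No gene of the TLR4 pathway, a list of 28 receptors, adaptors, kinases and transcription factors, changed by 20 points in coverage, and only 5 had a peak at all. All of these 5 had lower coverage, by 0.892 to 17.6 points. Of the 9066 genes with a peak in either list, 5395 had lower coverage to any degree. For the 5 pathway genes no values with the denser peaks only are given. Nfkb2, an NF-kappaB subunit, was covered for 30.3% with 188 reads in WT and 12.7% with 104 reads in mdxTLR4-/- BMDM, and the adaptor ligase Traf6 for 14.3% with 117 reads and 6.74% with 55.7 reads. Irf7, Traf3 and Lbp were the others. In reads, 4 of these genes had enough to be compared, and 3 of them, Nfkb2, Traf6 and Traf3, were at least 1.5-fold lower both unscaled and scaled, where 19.2% and 14.5% of all genes compared were. Of the other Toll-like receptors, Tlr12 was covered for 65.4% and 56.4% and Tlr5 for 14.7% and 11.0%, and the remaining 6 had no peak.

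The shares that follow stand beside 3.47% lower and 0.966% higher over all genes. Chemokine ligand genes differed in both directions, 3 of 37 lower (8.11%) and 3 of 37 higher (8.11%) by 20 points. Ccl2, which draws monocytes, was covered for 51.1% with 94 reads in WT and 5.45% with 10 reads in mdxTLR4-/- BMDM, a ratio of 0.105 (0.0494 to 0.204), with the WT peak ending upstream of its start. Cx3cl1, fractalkine, went from 76.7% and 518 reads to 45% and 268 reads, and was not called with the denser peaks only (56.0% and 45%). Cxcl1 had 48 reads in WT only. Cxcl16, a transmembrane chemokine and scavenger receptor, had no WT peak and was covered for 40% with 104 reads in mdxTLR4-/- BMDM, but the peak lay upstream of its start over the overlapping gene Zmynd15. Ccl21a and Ccl27b were covered in mdxTLR4-/- BMDM only, and both belong to a duplicated cluster on chromosome 4 where reads are hard to place.

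Of 39 interleukin genes 2 were lower (5.13%, against 3.47% of all genes) and 1 was higher (2.56%, against 0.966%). Il20 was covered for 100% in WT and 68.9% in mdxTLR4-/- BMDM. Il1f10 was covered for 100% and 71.9%, but with the denser peaks only it had no WT peak and the direction turned, so that it was called higher. The higher gene was Il22, a cytokine that acts on epithelia, which went from 32.8% with 89 reads to 64.8% with 159 reads, a ratio of 1.78 (1.37 to 2.34). Among 33 interferon-stimulated genes, Oasl1 went from 35.6% with 140 reads to no peak and Oas2 from 44.9% to 11.2%, both of the oligoadenylate synthetase family, while Ifi27l2a went from 1.06% to 33.0%. That is 6.06% lower and 3.03% higher, and with the denser peaks only Oasl1 had no peak in either list and Oas2 turned to 7.32% and 11.2%. The peaks in the Ifi27l2a window lay upstream of the gene. Of 34 MHC genes 4 were lower (11.8%, against 3.47% of all genes) and none higher by 20 points. H2-Oa, part of a regulator of peptide loading on class II molecules, went from 58.8% with 80 reads to no peak, and the other 3 were class I genes of the H2-M cluster. With the denser peaks only, H2-Oa had no peak in either list and H2-M10.5, covered for 81.9% and 45.4% with all peaks, turned to no peak in WT and 17.5% in mdxTLR4-/- BMDM.

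The lists of inflammatory genes that the study compiled stood near the background of all genes (3.47% lower and 0.966% higher). Of its 679 pro-inflammatory genes 22 were lower (3.24%) and 7 higher (1.03%), and of its 762 anti-inflammatory genes 16 were lower (2.10%) and 5 higher (0.656%). The pro-inflammatory gene with the largest loss but one was Vegfa, an angiogenic growth factor, covered for 84.1% with 570 reads in WT and 29.8% with 263 reads in mdxTLR4-/- BMDM, a ratio of 0.461 (0.397 to 0.535). Over the gene body its WT peak of 12.8 kb and 21.1 reads per kb gave way to a peak of 2.2 kb, between long flanking domains that stayed in place. Eva1b went from 69.8% to 12.3%. With the denser peaks only neither was called and both turned in direction, Vegfa to 24.2% in WT and 29.8% in mdxTLR4-/- BMDM and Eva1b to no peak and 12.3%. Ddit4, a stress-induced inhibitor of mTORC1, was covered in mdxTLR4-/- BMDM only, for 39.6% with 52 reads, by a peak upstream of its start. Among the anti-inflammatory genes, Rab4a, a GTPase of endosome recycling, went from 58.4% with 811 reads to 6.28% with 60 reads, a ratio of 0.0739 (0.0559 to 0.0962), and its start lay in a peak of 53.5 reads per kb in WT only. Tmem176b went from 78.2% to 26.3%, and Acy1 and Ch25h, the latter encoding cholesterol 25-hydroxylase, had a peak in mdxTLR4-/- BMDM only. With the denser peaks only, the Rab4a call was kept, Tmem176b was at 33.6% and 26.3%, and Ddit4, Acy1 and Ch25h had no peak in either list.

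Markers of other lineages differed in a few genes each, and over all genes 3.47% were lower and 0.966% higher. Of 14 neutrophil markers 3 were lower (21.4%) and 1 higher (7.14%). B cell markers had 1 of 10 lower (10%) and T and NK cell markers 1 of 14 (7.14%), with none higher. Erythroid and megakaryocyte markers had 1 of 11 lower and 1 higher (9.09% each). Of the neutrophil markers, Camp (48.8% with 76 reads), encoding the antimicrobial peptide cathelicidin, and Ctsg (27.6% with 50 reads), encoding cathepsin G, had a WT peak only, S100a9 went from 41.5% to 17.6%, and Prtn3, proteinase 3, had a mdxTLR4-/- peak only (23.1% with 67 reads). The peaks in the Camp and Prtn3 windows lay upstream of these genes and did not reach their starts. Tal1, a master regulator of blood stem cells and the erythroid lineage, went from 50.6% with 298 reads to 29.1% with 150 reads, as 1 peak of 10.8 kb over the start became 2 shorter peaks within the gene. Cd8b1, of a T cell coreceptor, and Cd79b, of the B cell receptor, had a WT peak only, with 183 and 52 reads. Tal1 was still called when only the denser peaks were used, and Camp, Ctsg, Prtn3, Cd8b1 and Cd79b had no peak in either list. No muscle marker changed by 20 points.

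Shares of matrix genes called lower lay near the 3.47% of all genes. Collagen genes averaged 42.5% in WT and 38.3% in mdxTLR4-/- BMDM. Of 42 genes 2 were lower by 20 points (4.76%) and none higher, namely Col6a3, from 55.9% with 921 reads to 23.8% with 396 reads, and Col11a2, from 48.1% with 580 reads to 16.8% with 285 reads. Col11a2 was still called with only the denser peaks, while Col6a3 turned to no peak in WT and 3.09% in mdxTLR4-/- BMDM. Col1a1, the main chain of fibrillar collagen, was covered for 100% in both. Of the 59 pro-fibrotic genes of the study 3 were lower (5.08%; Gdf5, Col6a3 and Fgfr1), and of its 41 matrix organization genes, which the study had selected on these libraries, 1 was lower (2.44%) while the list averaged 73.1% and 67.4%. This was Klk1b11, which turned with the denser peaks only, to 28.8% in WT and 56.0% in mdxTLR4-/- BMDM, and was then called higher. Gdf5, a growth factor of joints, went from 84.7% with 212 reads to 36.4% with 107 reads. Bmp2 went from 78.0% to 41.8%, while Inhbc went from 9.10% to 30.8%, and with the denser peaks only Bmp2 was no longer called and Inhbc had no peak. Of 39 laminins and integrins Lamb2 and Lama5 were lower (5.13%) and both were kept with the denser peaks. The reads of Lama5 differed less, 1315 in WT and 1116 in mdxTLR4-/- BMDM, a ratio of 0.849 unscaled and 0.961 scaled. Of 44 matrix proteases and inhibitors only Mmp1b was lower (2.27%), and it was not kept.

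Developmental regulators, which form the core of Polycomb domains, kept most of their coverage. Hox genes averaged 94.2% in WT and 91.1% in mdxTLR4-/- BMDM. Hoxa2 was covered for 90.1% and 68.9%. Over all genes 3.47% were lower and 0.966% higher. Of 101 homeobox, SOX and POU factors 4 were lower (3.96%), Isl1 (93.1% to 60.9%) and Pou6f1 (84.3% to 53.0%) most, and 2 were higher (1.98%), Irx6 (31.6% to 58.4%) and Pou4f2 (79.3% to 100%). The reads of Pou4f2 went the other way, from 432 in WT to 352, a ratio of 0.814 unscaled and 0.922 scaled. With the denser peaks only Pou6f1 was no longer called (69.4% and 52.8%), while Isl1, Irx6 and Pou4f2 were. Wnt ligands and Frizzled receptors had 4 of 29 lower (13.8%), among them Wnt16, from 71.2% with 437 reads to 33.1% with 257 reads, and Fzd3. With the denser peaks only neither was called, Wnt16 being at 33.1% in both lists and Fzd3 at 31.7% and 23.8%. Of 53 keratins 7 were lower (13.2%) and 1 higher (1.89%), and of the lower ones Krt12, Krt16, Krt19, Krt27, Krt28 and Krt36 lie on chromosome 11 and Krt7 on chromosome 15, where Krt1, Krt2 and Krt4 were covered for 100% in both lists. Krt27 was still called with the denser peaks only, and Krt12 had no peak in either list. Potassium channels had 6 of 91 lower (6.59%) and none higher. The 2 with the largest losses, Kcnmb3 and Kcnip2, were not called with the denser peaks only, Kcnmb3 being at 32.3% and 23.3% and Kcnip2 turning to 13.2% and 19.9%. Ionotropic receptors had 1 lower (Gabrr1) and 1 higher (Chrne) of 55, 1.82% each. With the denser peaks only Gabrr1 was no longer called (31.3% and 25.4%), and Chrne was kept. Axon guidance genes had 2 of 66 lower (3.03%; Sema3g and Sema4g) and 1 higher (1.52%; Ntn5), and forkhead factors 2 of 41 lower (4.88%; Foxs1 and Foxe3). Of these, only Sema4g was not kept with the denser peaks (33.5% and 32.5%). The reads of Foxe3 differed little, 261 in WT and 241 in mdxTLR4-/- BMDM, a ratio of 0.926 unscaled and 1.05 scaled. Olfactory receptors had 40 of 1087 lower (3.68%) and 8 higher (0.736%), and among vomeronasal receptors Vmn1r1 was lower. Clustered protocadherins, cyclin-dependent kinase inhibitors, and the genes of Polycomb repressive complex 2 and the H3K27 demethylases had no gene past 20 points, and of 77 cytosolic ribosomal protein genes only Rpl35a was lower. The WT peak in the Rpl35a window lay upstream of the gene and was not among the denser peaks.

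Across the 36 gene lists, mean coverage was lower in mdxTLR4-/- BMDM in 31 and higher in 4, and the list of anti-inflammatory markers had no peak. The 4 with a higher mean were chemokine ligands, erythroid and megakaryocyte markers, clustered protocadherins, and the genes of Polycomb repressive complex 2 and the demethylases. The lists share genes, and all genes together were also lower, so this count describes the lists and is not a result about any of them.

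**Figure D4:**
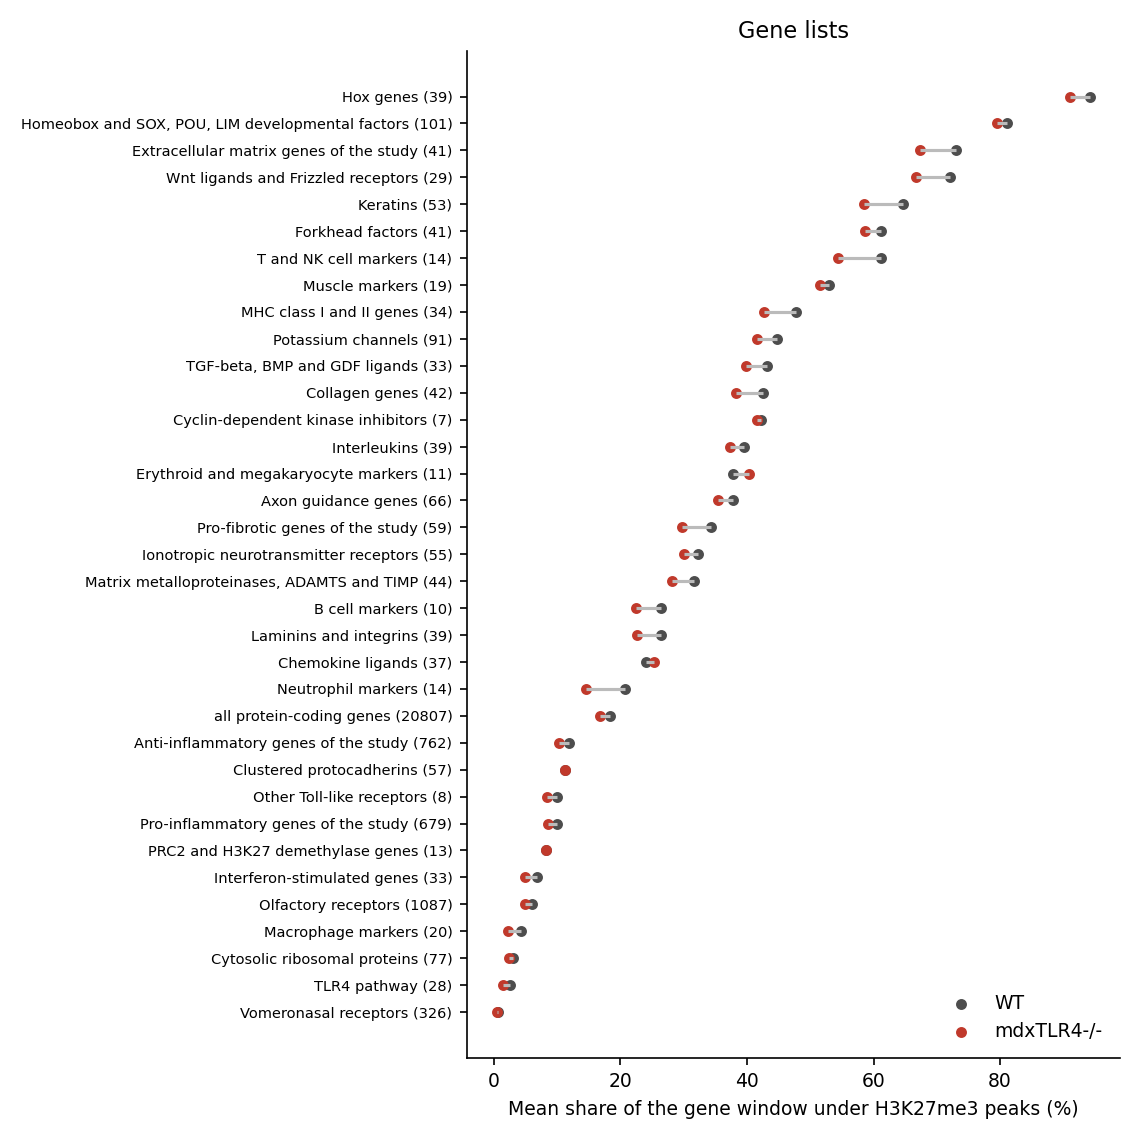
Mean share of the gene window under H3K27me3 peaks (%) for each gene list, with the number of genes in parentheses, in WT (grey) and mdxTLR4-/- BMDM (red). The Hox genes have the highest mean in both genotypes (94.2% and 91.1%), and the TLR4 pathway lies near the bottom (2.59% and 1.38%).

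Genes covered for at least 80% in both lists allow a comparison of reads where coverage is high in both. There were 1730 such genes, with a median read ratio of 0.965 unscaled (95% interval 0.961 to 0.970) and 1.09 scaled. Scaled, 81.9% of them had more reads in mdxTLR4-/- BMDM, and unscaled 34.8% did. Scaled, 5 were at least 1.5-fold lower and 13 at least 1.5-fold higher, and unscaled the balance turned, with 12 lower and 5 higher. The largest scaled ratios were 2.12 for Nkx6-2 and 1.83 for Sp5, followed by Islr2, Dmrta2 (1.78) and Gm45623 (1.73), the first a homeobox factor of oligodendrocytes and the second a zinc finger target of Wnt signalling. The smallest were 0.563 for Cd209a, the dendritic cell lectin DC-SIGN, 0.566 for Dkkl1, 0.598 for Tead2, a partner of YAP, 0.623 for the metallothionein Mt2 and 0.658 for Gm13090. In all 10 the WT value came wholly or, for Gm13090, mostly from the gene's share of 1 long peak that ran on past it, of 28.2 kb over Sp5 to 198 kb over Islr2, while the mdxTLR4-/- peaks over these genes were at most 25.2 kb long. Density within a long peak is averaged, so these ratios compare the gene in mdxTLR4-/- BMDM with a wider domain in WT.

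The difference was smallest at gene starts. A peak lay over the transcription start of 24.5% of genes in WT and 23.6% in mdxTLR4-/- BMDM, a difference of -0.947 points. At 10 kb upstream the shares were 20.4% and 18.6%, and at 10 kb downstream 17.4% and 15.6%. The start was under a peak in both lists in 4546 genes, in WT only in 552 and in mdxTLR4-/- only in 355. Genes whose start was covered in only 1 list had fewer CpG dinucleotides around it. In the 300 bases from 250 upstream to 50 downstream of the start, read from the GRCm38 genome, the median was 6 CpG for the WT-only genes, 7 for the mdxTLR4-/- only genes and 11 for genes covered in both, against 12 for all genes. The observed to expected CpG ratio was above 0.6 in 27.4%, 34.9% and 37.5% of these groups and in 45.5% of all genes. The same held for the 722 genes with lower and the 201 genes with higher coverage, with a median of 6 CpG in both, so that losses and gains were alike in this respect.

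**Figure D5:**
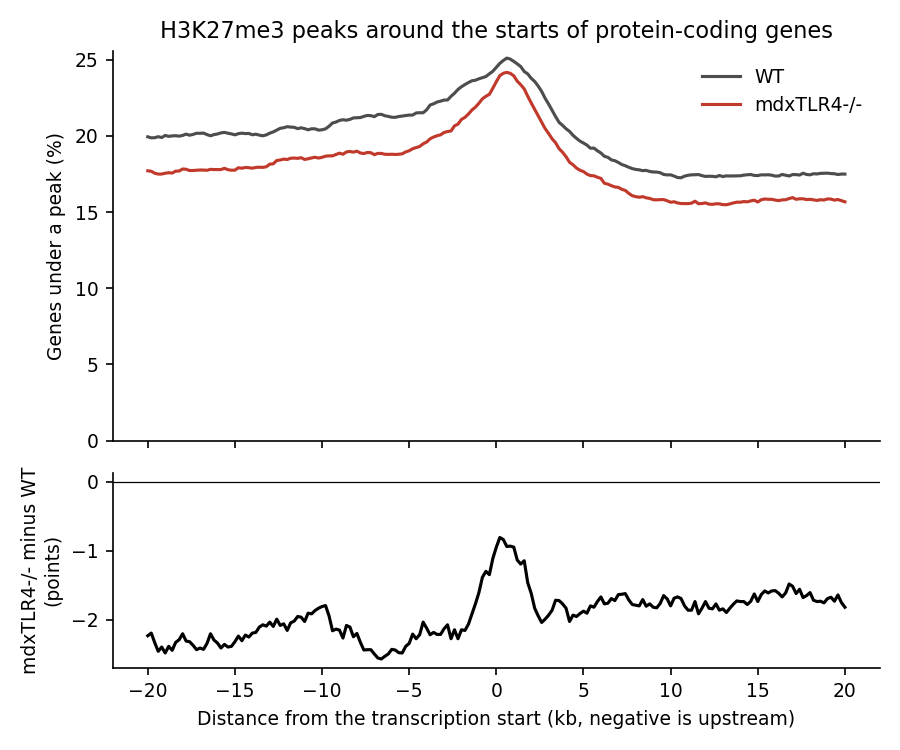
Share of protein-coding genes (%) with a H3K27me3 peak at each distance from the transcription start (kb, negative is upstream) in WT (grey) and mdxTLR4-/- BMDM (red), with the difference in percentage points below. Both curves are highest at 0.6 kb, and the difference is narrowest at 0.2 kb (-0.807 points) and widest at 6.6 kb upstream (-2.57 points).

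The 250 bases upstream of 5 gene starts show these contents, taken from RefSeq (GRCm38.p6) and written 5′ to 3′ on the gene's strand with each CpG in capitals. The genes were chosen after their values were seen: the starts of Tal1 and Ctsg were under a peak in WT only, those of Gp9 and Ch25h in mdxTLR4-/- only, and that of Nkx6-2 in both.
Tal1, chr4:115056176-115056425, plus strand: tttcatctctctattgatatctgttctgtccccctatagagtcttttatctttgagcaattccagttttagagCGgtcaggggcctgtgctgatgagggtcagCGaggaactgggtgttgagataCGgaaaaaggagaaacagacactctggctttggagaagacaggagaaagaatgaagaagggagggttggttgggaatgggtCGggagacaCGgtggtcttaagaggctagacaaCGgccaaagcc
Ctsg, chr14:56102575-56102824, minus strand: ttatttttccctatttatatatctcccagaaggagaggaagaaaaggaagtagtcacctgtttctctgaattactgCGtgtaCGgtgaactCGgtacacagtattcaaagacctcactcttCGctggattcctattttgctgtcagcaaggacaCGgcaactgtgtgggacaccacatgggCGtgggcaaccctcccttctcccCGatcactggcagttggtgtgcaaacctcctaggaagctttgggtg
Gp9, chr6:87777820-87778069, plus strand: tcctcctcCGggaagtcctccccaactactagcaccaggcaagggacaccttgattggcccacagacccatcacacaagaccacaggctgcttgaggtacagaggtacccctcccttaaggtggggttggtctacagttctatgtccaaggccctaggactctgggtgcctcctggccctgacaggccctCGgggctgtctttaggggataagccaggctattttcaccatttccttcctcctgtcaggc
Ch25h, chr19:34475149-34475398, minus strand: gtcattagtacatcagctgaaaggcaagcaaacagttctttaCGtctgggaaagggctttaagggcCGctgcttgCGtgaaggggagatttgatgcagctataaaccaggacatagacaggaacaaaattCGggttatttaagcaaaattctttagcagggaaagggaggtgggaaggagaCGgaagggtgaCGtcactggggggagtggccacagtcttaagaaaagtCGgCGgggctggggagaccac
Nkx6-2, chr7:139582798-139583047, minus strand: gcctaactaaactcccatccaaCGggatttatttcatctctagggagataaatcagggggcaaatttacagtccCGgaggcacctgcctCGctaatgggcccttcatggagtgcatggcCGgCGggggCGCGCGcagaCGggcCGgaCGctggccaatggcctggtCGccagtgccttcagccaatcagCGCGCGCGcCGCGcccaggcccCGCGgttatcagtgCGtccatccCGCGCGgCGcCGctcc
These stretches hold 6 CpG for Tal1, 7 for Ctsg, 2 for Gp9, 8 for Ch25h and 26 for Nkx6-2. Over 300 bases, with the 50 downstream of the start included, the counts were 11, 8, 3, 10 and 32 in the same order. Tal1 thus equalled the median of 11 for genes covered in both lists, with an observed to expected CpG ratio of 0.647. The peaks behind the first 4 were of different weight: Gp9 held 192 reads, Tal1 298 in WT, Ctsg 50 and Ch25h 36.

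The strongest regions found in 1 list alone lay partly outside protein-coding genes. By reads the first in WT was a region of 19.4 kb over Megf6 (chr4:154211801-154231200, 476 reads), followed by 9.2 kb over pseudogenes and non-coding RNAs on chromosome 9 with 442 reads. In mdxTLR4-/- BMDM they were 9 kb within Dnah14 (chr1:181736201-181745200), an axonemal dynein, with 561 reads and 62.3 reads per kb, 18.6 kb over Podnl1 with 505 reads, and 16.6 kb within Hrh1, the histamine H1 receptor, with 459 reads. Of the first 12 in mdxTLR4-/- BMDM, 3 lay in the repeated stretch of vomeronasal pseudogenes on chromosome 4, where copies are near-identical and reads may be misplaced. By chromosome, the share of genes lower by 20 points ran from 1.56% on chromosome 18 to 5.68% on chromosome 17, and the share of genes higher ran from 0.151% on chromosome 16 to 1.83% on chromosome 8. On every chromosome from 1 to 19 more genes were lower than higher.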

How the data were processed

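H3K27me3 ChIP-seq of untreated BMDM was compared between mdxTLR4-/- and WT mice, with 2 ChIP libraries per genotype. As the methods and labels describe, native chromatin was cut with micrococcal nuclease, and reads were aligned to mm10 by the authors (Bowtie2, 2.3.4 in the submitters' processing notes). After the replicates were merged, SICER (2.0 there) called peaks at an FDR below 0.01 with a window of 200 bp and a gap of 600 bp. The authors deposited, for every peak, the counts of ChIP reads inside it, without scaling or subtraction of input. The removal of duplicate reads is not given in the sources used here. Merged libraries hide the spread between mice, peaks are present only above the caller's limit, and a missing peak is not an absence of reads.

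End columns were taken as inclusive and chromosomes 1 to 19 were kept, leaving out 119 WT and 194 mdxTLR4-/- peaks. Gene windows ran from 5 kb upstream to 1 kb past each GENCODE vM21 gene. mm10, GENCODE vM21 and the RefSeq sequences use the same build, GRCm38. Reads of a peak were divided by length. Calls were a coverage difference of 20 points, and a 1.5-fold read difference with at least 50 reads in the higher list. Regions were made by joining peaks of either list that shared 1 bp or more. Exact Clopper-Pearson intervals at the 95% level were used for ratios of reads, with reads rounded, order-statistic intervals for medians and normal intervals for the mean over genes.

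The genes named were Tlr4 and the study's M1 and M2 markers; the 15 largest coverage differences in each direction among genes changed in coverage and in reads under both scalings, with at least 100 reads in the higher list, 1 gene per merged region and no predicted genes; in each list up to 2 of the largest differences past 20 points in each direction; and the 5 largest read differences each way among genes covered for 80% or more in both lists. Further genes (such as Cxcl1, S100a9, Krt7, Nfkb2, Traf6, Tlr12, Lta, Zmynd15 and Fgfr1) and the single-list regions were chosen after their values were seen. The comparison and all gene lists were chosen with earlier results of these data known. The H3K27ac and mdx peak lists were not used here, and results for some genes are not reported here. The scripts ran under Python 3.11.15 (pandas 2.3.3, scipy 1.17.1, numpy 2.4.6), figures were drawn in matplotlib 3.10.9, and the window functions were tested on simulated peaks. Alternatives covered the peak filter, the window, the thresholds, the assignment of reads and the scaling.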

Additional observations from a re-analysis of the deposited data

How the results depend on the processing

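No paired analysis was possible because the authors merged the replicates before calling peaks, and leaving out a replicate was not possible for the same reason. More genes were lower than higher in coverage, in reads and in both under every alternative run. Joining peaks up to 600 bp apart changed nothing, since the caller had joined them already.

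Values that moved are given by setting, lower before higher. With the same number of peaks per list, the densest first, coverage calls were 1096 and 121, 300 genes had higher unscaled reads and 82 were higher in coverage and reads; the median ratios were 0.868 for windows and 0.989 for regions, the unshared bases 31.0% of WT and 10.2% of mdxTLR4-/-, and the mean change -2.78 points. With denser peaks only, the values were 0.919, 0.963, 19.5%, 15.2% and -0.81 points, and with peaks of at least 2 kb 0.883, 0.948, 27%, 14.4% and -2.02 points. Within 2.5 kb of the start, coverage calls were 1273 and 623, unscaled read calls 835 and 268, 614 genes had lower scaled reads, 214 were higher in coverage and reads, and the mean change was -1.48 points. Over all annotated genes the coverage calls were 2362 and 967, the unscaled read calls 3272 and 1009, the scaled ones 2544 and 1276, and 1508 and 506 genes passed both. A threshold of 10 points gave 1836 and 555 in coverage and 728 and 236 in both, and 40 points gave 147 and 36, and 138 and 34. A 2-fold threshold gave 832 lower unscaled, 710 and 357 scaled, and 287 lower in both. A minimum of 20 reads gave 910 higher unscaled and 1053 higher scaled, and 200 reads gave 522 and 72 unscaled, 328 and 122 scaled, and 169 and 25 in both. Counting all reads of touching peaks gave 2497 lower unscaled and 2002 lower scaled. Scaled by reads in peaks, the median ratio was 1.01 for windows and 1.08 for regions, and scaled by each list's 1st percentile of density it was 0.976 and 1.05, so that the direction turned in 3 of these 4.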
